A study of Mus musculus with 12 samples.

Results

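The genes described here make sterols and fatty acids or control their making, 33 genes in all out of 28004 in the table. They were chosen by symbol and pathway, with earlier results of these data known, and all 33 passed the filter on low counts, which 16827 genes passed. They comprised 7 mevalonate enzymes, 11 enzymes of the squalene and sterol ring steps, 6 genes of sterol regulatory element binding protein (SREBP) control and sterol transport, and 9 genes of fatty acid synthesis, elongation and desaturation. They were measured by bulk RNA sequencing of mouse lung cells that carried 2 reporters, Acta2-dsRed and Pdgfra-GFP, at embryonic day E17.5 and on postnatal days 3, 7 and 10 (P3, P7 and P10), in 3 libraries each. All 12 libraries shared this genotype, and no treatment is named in the labels. The cells were sorted for both reporters from dissociated whole lung, so the gate admits any cell in which both the smooth muscle actin and the platelet-derived growth factor receptor alpha reporters are lit, and it is not specific to 1 cell type. The labels do not state whether each library is a different animal. The p-values therefore measure the spread between samples only, and that spread may be technical.

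Sterols are built from acetyl-CoA through mevalonate to isoprenoid units, which are joined to squalene, closed to the sterol ring and trimmed to cholesterol. Fatty acids are built from the same acetyl-CoA by carboxylation, chain synthesis, elongation and desaturation. Both routes are switched on by the SREBP transcription factors, which Srebf1 and Srebf2 encode. These lie in the membrane of the endoplasmic reticulum until Scap escorts them to the Golgi for cleavage, and the Insig proteins hold Scap back when sterol is plentiful. The Srebf2 product acts mainly on sterol genes and a Srebf1 product mainly on fatty acid genes, beside the factors NF-Y, which binds CCAAT, and Sp1, which binds GC boxes. In the lung, epithelial type 2 cells make surfactant lipid, lipofibroblasts store triglyceride, and myofibroblasts lay down elastin in the growing septa.

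Promoters of these genes were read for short motifs. RefSeq promoter windows on GRCm38.p6 were found for 26 of the 33 genes, in 34 windows, and each was searched on both strands over the 250 bases before the start site. A sterol regulatory element spelled TCACNCCAC was present in 1 of the 34 windows, that of Hmgcs1, and in 1.05% of all 32851 windows. CCAAT was present in 21 of the 34 windows (61.8%), against 33.8% of all windows, and the GC box GGGCGG in 25 (73.5%), against 32.7%. These shares pool genes that rose, fell or did not pass a test. Some genes have more than 1 window, and some windows lie within the gene. These matches describe letters and are not measured binding sites, and a window without a match says only that these letters are not in it. Shown 5′ to 3′ on the gene's own strand are Hmgcs1, the 1 window with the sterol element, Lss and Hsd17b7, sterol enzymes that rose after birth, and Fasn, a fatty acid enzyme that did not pass the test from E17.5 to P3. Capitals mark the sterol element in Hmgcs1 and CCAAT on either strand, which reads ATTGG when it lies on the other strand. In Fasn 1 run holds CCAAT on both strands, overlapping by 2 bases.
Hmgcs1: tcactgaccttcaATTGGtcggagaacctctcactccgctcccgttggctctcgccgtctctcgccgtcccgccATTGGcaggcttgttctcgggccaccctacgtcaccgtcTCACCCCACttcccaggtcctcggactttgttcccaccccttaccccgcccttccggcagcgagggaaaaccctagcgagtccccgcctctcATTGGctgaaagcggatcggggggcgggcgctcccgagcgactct
Lss: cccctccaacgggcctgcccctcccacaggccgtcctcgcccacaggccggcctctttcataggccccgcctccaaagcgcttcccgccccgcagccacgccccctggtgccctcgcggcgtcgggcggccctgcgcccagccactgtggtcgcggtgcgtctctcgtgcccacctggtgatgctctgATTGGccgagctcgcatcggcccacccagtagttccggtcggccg
Hsd17b7: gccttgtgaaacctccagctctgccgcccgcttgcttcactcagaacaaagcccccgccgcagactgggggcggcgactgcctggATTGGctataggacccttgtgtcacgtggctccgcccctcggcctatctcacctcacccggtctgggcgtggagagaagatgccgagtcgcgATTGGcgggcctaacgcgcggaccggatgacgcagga
Fasn: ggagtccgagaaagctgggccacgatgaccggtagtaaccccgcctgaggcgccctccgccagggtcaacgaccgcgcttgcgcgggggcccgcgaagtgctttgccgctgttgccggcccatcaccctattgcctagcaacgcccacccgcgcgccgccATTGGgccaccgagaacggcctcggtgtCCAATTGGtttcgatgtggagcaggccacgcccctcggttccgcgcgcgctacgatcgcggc

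The stretches are chr13:119690101-119690350 on the plus strand, chr10:76531355-76531587 on the plus strand, chr1:169969242-169969455 on the minus strand and chr11:120824548-120824797 on the minus strand of GRCm38.p6. In Hmgcs1 the sterol element lay 137 to 129 bases before the start, between a pair of CCAAT matches farther away and 1 close to the start, at 45 to 41 bases. Lss held 1 CCAAT match, and Hsd17b7 3, of which 2 are shown; the stretches of both genes stop short of the RefSeq start, where the GENCODE gene model has already begun. Hmgcs1, whose enzyme commits acetyl units to the mevalonate route, and Fasn, the fatty acid synthase, each held 3 CCAAT matches.

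Summed estimated counts lay between 13328623 and 18740591 per library, with 20234 to 21235 genes above 0, and 20.0% to 46.3% of the sum came from 7SL and 7SK small RNA rows. Levels are given as CPM, each library's counts scaled to a common total by trimmed means (TMM), with replicates 1 to 3 in order. The deposited values look scaled by transcript length, as described under processing, so a CPM here compares genes per length and is not a number of reads. Differences are log2 fold changes, written as log2 changes, from edgeR's quasi-likelihood test, called at an adjusted p under 0.05 over all 16827 genes. Both reporter genes were present in every library: Acta2 lay between 347 and 1075 CPM and Pdgfra between 165 and 409. Of 6 markers of the sorted cells (reporter and alveolar myofibroblast genes), 3 rose and 2 fell from E17.5 to P3. Their estimates ran from -2.57 to 4.55, and 25.1% of all tested genes were called. Between E17.5 and P10, 1 rose and 2 fell (estimates from -2.43 to 5.56), where 18.3% of all tested genes were called. The part of these changes in those of the 33 genes was not tested. E17.5 replicate 1 stood apart in alveolar fibroblast markers, whose 6 genes summed to 1206, 272 and 207 CPM in the E17.5 libraries, then 397, 415 and 296 on P3, 37.2, 72.3 and 100.5 on P7, and 44.0, 78.9 and 78.7 on P10. In bulk samples, fewer cells of a type and less RNA per cell cannot be told apart.

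Over the 4 stages 18 of the 33 genes differed, where 32.1% of all tested genes did. By group these were 6 of 7 mevalonate enzymes, 5 of 11 sterol ring enzymes, 1 of 6 control genes (Scap) and 6 of 9 fatty acid genes. P3 had the highest stage mean for 19 genes, E17.5 for 8, P10 for 6 and P7 for 0, where the shares of all tested genes were 22.8%, 33.1%, 26.3% and 17.9%. E17.5 had the lowest mean for 18 genes and for 30.8% of all tested genes. In 4 genes (Acat2, Fdps, Sqle and Cyp51) all 3 P3 libraries lay above the other 9, as in 3.96% of all tested genes. In 4 others (Mvd, Scap, Acss2 and Scd2) all 3 E17.5 libraries lay above the other 9 (8.36% of all tested genes), and in 6 (Idi1, Hsd17b7, Dhcr7, Elovl6, Scd1 and Fads2) they lay below (7.85%). The count of 18 fell to 10 without E17.5 replicate 1 or replicate 2 and to 11 without P3 replicate 2. Over all tested genes the count was 5401, and 4096 to 5413 with each library left out in turn. Per length and over all 12 libraries, Scd2 had the highest mean level of the 33 and Mvd the lowest: Scd2 lay at 82.2 ± 17.0 CPM at E17.5, then 48.8 ± 15.5 on P3, 56.4 ± 4.32 on P7, and 48.9 ± 3.71 on P10 (SD, n = 3). Mvd lay at 4.60 ± 0.197 CPM at E17.5, then 3.35 ± 0.224 on P3, 2.45 ± 0.322 on P7, and 2.65 ± 0.551 on P10 (SD, n = 3).

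From E17.5 to P3, across birth, 10 of the 18 enzymes of the sterol route rose, while Acss2, Scd2 and Srebf1 fell. Of the 33 genes 14 were higher and 3 lower, that is 17 called, where 25.1% of all tested genes were called, 13.1% higher and 12% lower. The median log2 fold change was 0.47 over the 33 genes and -0.05 over all tested genes. Higher genes numbered 4 of 7 among the mevalonate enzymes, 6 of 11 among the sterol ring enzymes, 0 of 6 among the control genes and 4 of 9 among the fatty acid genes. Median log2 fold changes of the 4 groups were 0.76, 0.76, -0.04 and 0.40 in the same order. All 3 genes that fell were control or fatty acid genes. The plot of differences for every gene shows the 3 comparisons that hold most of the calls.

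**Figure D1:**
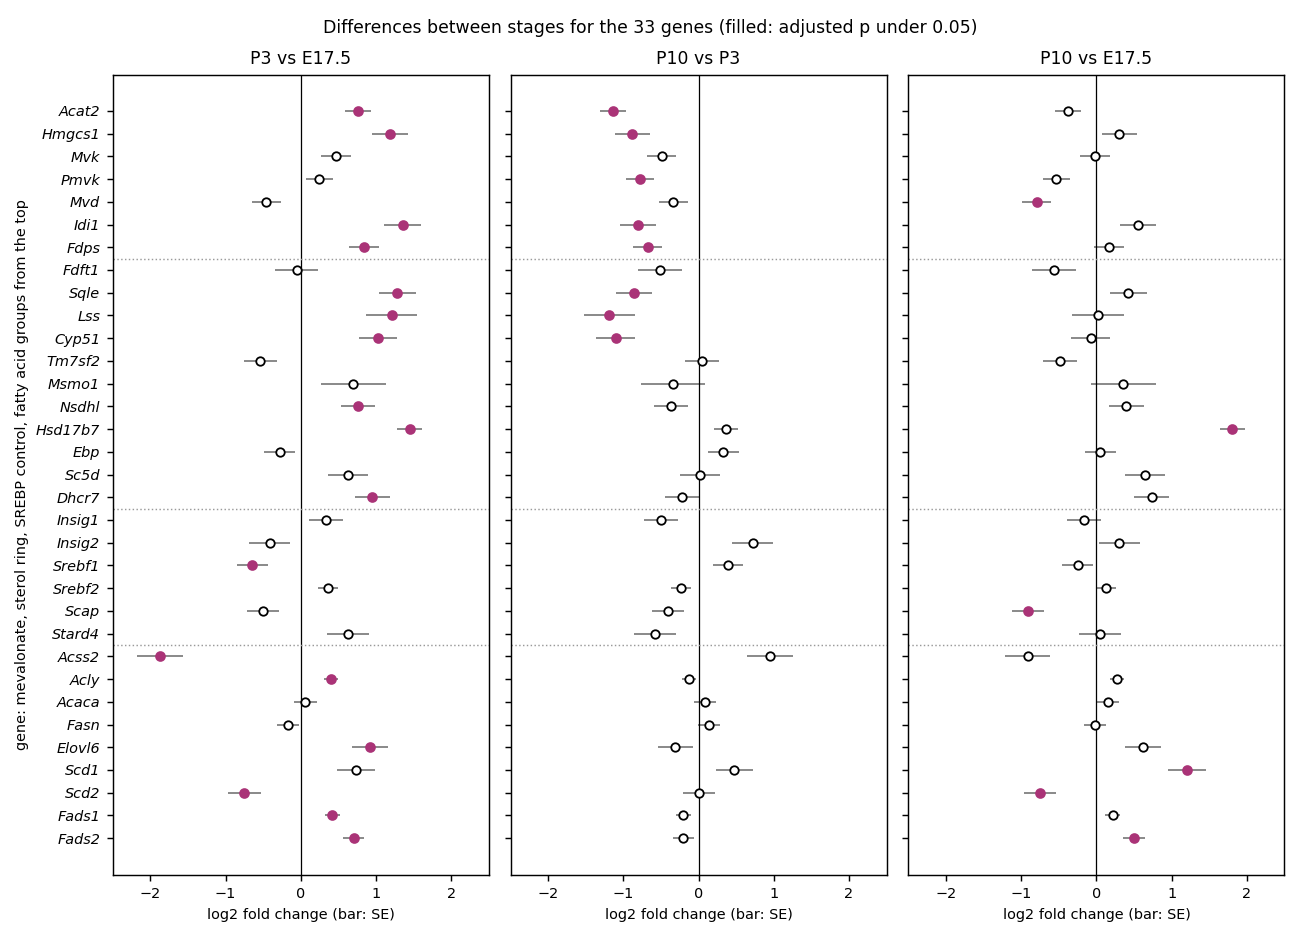
Log2 fold change (x axis) of each of the 33 genes (rows, by group) for P3 vs E17.5, P10 vs P3 and P10 vs E17.5; points are estimates over 3 libraries per stage, bars are SE, and filled points have an adjusted p under 0.05. On the left panel 14 points are filled to the right of 0 and 3 to the left; on the middle panel all 8 filled points lie to the left of 0 and in the upper 2 groups.

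Among the mevalonate enzymes, Hmgcs1 (chromosome 13, 119690379 to 119708260, plus strand; positions are GRCm38, GENCODE M21), which makes HMG-CoA from acetoacetyl-CoA, gave 19.6, 17.7 and 20.8 CPM in the E17.5 libraries, then 28.4, 58.3 and 45.6 on P3, 31.7, 24.3 and 23.9 on P7, and 23.5, 20.1 and 28.3 on P10. All 3 P3 libraries lay above all 3 at E17.5, and the P3 libraries differed widely among themselves. Its log2 fold change was 1.19 (SE 0.24, adjusted p = 0.00454), a 2.28-fold rise. Idi1 (chromosome 13, 8885501 to 8892451, plus strand), the isomerase of the isoprenoid units, gave 6.46, 5.06 and 6.52 CPM in the E17.5 libraries, then 11.5, 17.7 and 17.1 on P3, 13.4, 9.07 and 9.31 on P7, and 7.72, 7.25 and 11.5 on P10. Every E17.5 library lay below every later one, and the rise was 2.56-fold, with a log2 change of 1.35 (SE 0.24, adjusted p = 0.00273). Of the 31-base words of Idi1 exons, 18.8% occur in other genes, mainly the copy Gm13502, which lay between 2.38 and 16.6 CPM, so reads may be split between them.

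Fdps (chromosome 3, 89093588 to 89101959, minus strand), which makes farnesyl pyrophosphate, gave 14.6, 13.7 and 22.2 CPM in the E17.5 libraries, then 25.2, 36.6 and 29.3 on P3, 21.9, 19.05 and 21.5 on P7, and 20.9, 15.9 and 20.1 on P10. Acat2 (chromosome 17, 12942890 to 12960747, minus strand), a cytosolic thiolase that joins the first pair of acetyl units, gave 7.41, 7.202 and 11.2 CPM in the E17.5 libraries, then 14.3, 14.9 and 14.8 on P3, 13.6, 10.6 and 11.6 on P7, and 6.23, 6.47 and 7.22 on P10. In both genes the 3 P3 libraries were the highest of all 12, and those of Acat2 were close together. The log2 fold changes were 0.85 (SE 0.20, adjusted p = 0.0111) for Fdps and 0.76 (SE 0.17, adjusted p = 0.00936) for Acat2. Acat2 shares 43.7% of its 31-base words with other genes, mainly Acat3, which reached no more than 2.73 CPM, and Fdps shares 27.9%, mainly with an overlapping gene model. Mvk and Pmvk, the kinases that phosphorylate mevalonate in turn, did not pass, at a log2 change of 0.47 (SE 0.20, adjusted p = 0.108) and a log2 change of 0.25 (SE 0.18, adjusted p = 0.36). Mvd, the decarboxylase of the next step, did not pass either, although its 3 P3 libraries lay below those at E17.5, at a log2 change of -0.46 (SE 0.19, adjusted p = 0.108).

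In the sterol ring group, Sqle (chromosome 15, 59315077 to 59331192, plus strand), the squalene epoxidase, gave 5.37, 6.71 and 7.25 CPM in the E17.5 libraries, then 11.8, 19.4 and 15.9 on P3, 10.9, 8.56 and 7.99 on P7, and 9.44, 6.08 and 10.4 on P10. Cyp51 (chromosome 5, 4081145 to 4104746, minus strand), the lanosterol demethylase, gave 11.1, 15.1 and 21.6 CPM in the E17.5 libraries, then 21.9, 37.7 and 38.1 on P3, 19.9, 19.2 and 16.1 on P7, and 14.1, 14.3 and 17.1 on P10. P3 was highest in both, and in Cyp51 the lowest P3 library was only just above the highest E17.5 library. Log2 fold changes were 1.28 (SE 0.24, adjusted p = 0.0036) for Sqle and 1.03 (SE 0.26, adjusted p = 0.0144) for Cyp51. Lss (chromosome 10, 76531588 to 76557138, plus strand), which closes the ring to lanosterol, gave 2.92, 2.92 and 3.18 CPM in the E17.5 libraries, then 4.43, 9.34 and 7.09 on P3, 4.19, 5.18 and 2.16 on P7, and 3.74, 2.46 and 2.95 on P10. It rose with a log2 change of 1.21 (SE 0.34, adjusted p = 0.026). P3 replicate 2 was the highest Lss library and P3 replicate 1 lay within the P7 range.

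Hsd17b7 (chromosome 1, 169949535 to 169969241, minus strand), a ketosteroid reductase of the steps that strip methyl groups from the ring, gave 5.64, 5.06 and 6.26 CPM in the E17.5 libraries, then 15.1, 17.49 and 13.8 on P3, 9.92, 11.2 and 12.99 on P7, and 16.9, 23.7 and 19.1 on P10. Its E17.5 libraries lay far below all others, and 2 of its P10 libraries exceeded every P3 library. The rise to P3 was 2.73-fold, a log2 change of 1.45 (SE 0.17, adjusted p = 0.00022), the largest of the 33 genes. Dhcr7 (chromosome 7, 143823145 to 143848410, plus strand), which takes dehydrocholesterol to cholesterol, gave 2.65, 2.53 and 4.49 CPM in the E17.5 libraries, then 5.25, 7.41 and 6.21 on P3, 6.28, 5.41 and 5.73 on P7, and 6.17, 5.05 and 5.03 on P10. Its E17.5 libraries were also the lowest of the 12, and it rose with a log2 change of 0.95 (SE 0.23, adjusted p = 0.013). Nsdhl, a sterol dehydrogenase, rose from 3.25 ± 0.890 to 5.56 ± 0.917 CPM (SD, n = 3), a log2 change of 0.76 (SE 0.23, adjusted p = 0.0332). The other 5 did not pass: Msmo1 and Sc5d had positive estimates (log2 change 0.70, SE 0.43, adjusted p = 0.274 and log2 change 0.63, SE 0.27, adjusted p = 0.115), and Tm7sf2, Ebp and Fdft1 negative ones, from -0.54 to -0.06. Msmo1, a methylsterol oxidase, gave 5.57, 8.95 and 14.9 CPM in the E17.5 libraries, then 11.6, 21.6 and 14.7 on P3, 12.8, 7.78 and 10.8 on P7, and 7.54, 9.90 and 20.2 on P10. Its libraries differed widely within stages. Tm7sf2, a sterol reductase, lay at 7.19 ± 1.15 CPM at E17.5, then 4.94 ± 1.45 on P3, 5.41 ± 0.692 on P7, and 5.12 ± 0.809 on P10 (SD, n = 3). Ebp, a sterol isomerase, lay at 7.29 ± 1.52 CPM at E17.5, then 6.003 ± 0.969 on P3, 5.94 ± 1.26 on P7, and 7.53 ± 0.372 on P10 (SD, n = 3). Fdft1, the squalene synthase, was uneven at E17.5, with 7.41, 10.8 and 17.9 CPM.

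**Figure D2:**
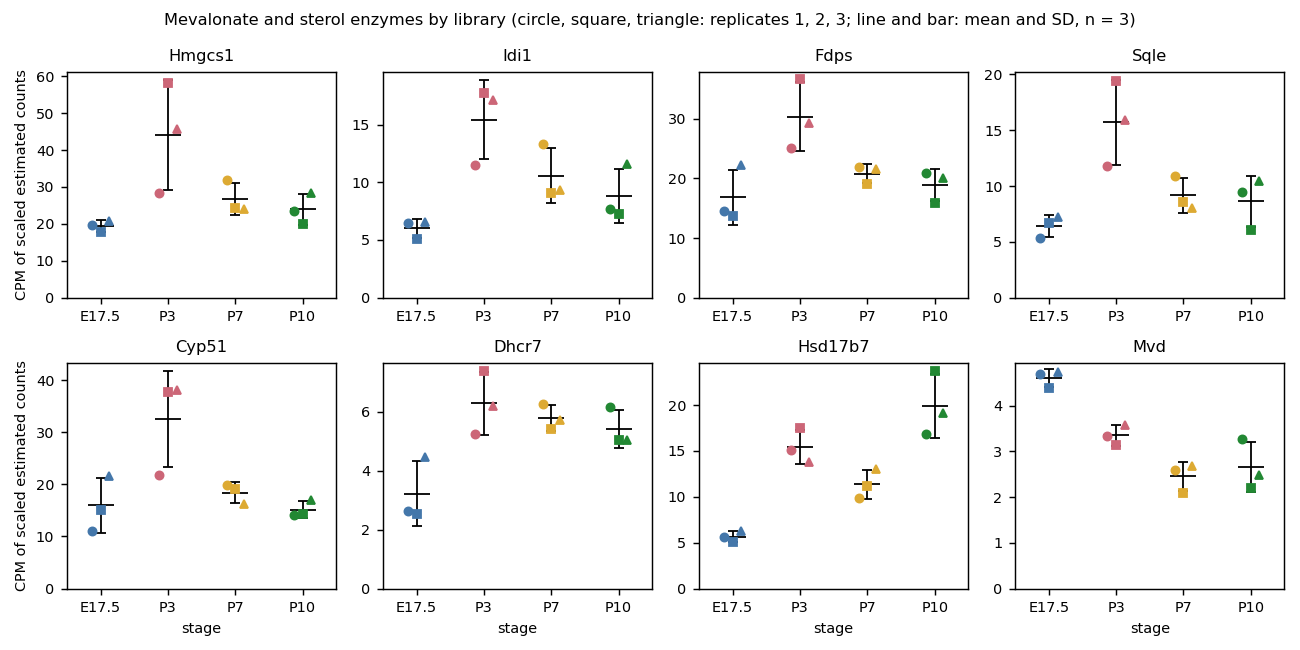
CPM (y axis, from 0) by stage (x axis) for 8 sterol enzymes; circles, squares and triangles are replicates 1, 2 and 3, lines and bars the mean and SD of 3 libraries. Hmgcs1, Idi1, Fdps, Sqle and Cyp51 are highest at P3, Dhcr7 and Hsd17b7 stay above E17.5 through P10, and Mvd is highest at E17.5.

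Of the 6 control and transport genes, 1 was called and it was lower at P3. Srebf1 (chromosome 11, 60199089 to 60222581, minus strand) gave 19.6, 22.7 and 27.2 CPM in the E17.5 libraries, then 19.8, 12.7 and 12.1 on P3, 21.1, 15.1 and 15.9 on P7, and 20.8, 18.4 and 19.3 on P10. It fell with a log2 change of -0.64 (SE 0.20, adjusted p = 0.042). P3 replicate 1 lay within the E17.5 range, so the groups overlapped. Srebf2 (chromosome 15, 82147181 to 82205379, plus strand) gave 23.1, 21.99 and 26.0 CPM in the E17.5 libraries, then 24.4, 33.3 and 33.8 on P3, 25.2, 25.2 and 22.2 on P7, and 27.1, 23.4 and 27.2 on P10. It did not pass, with a log2 change of 0.36 (SE 0.13, adjusted p = 0.0728). P3 replicate 1 was again the exception, at the E17.5 level, while the other P3 libraries were the highest of the 12. Insig1, itself a textbook SREBP target, gave 21.0, 18.0 and 22.4 CPM in the E17.5 libraries, then 18.7, 32.8 and 26.0 on P3, 20.6, 20.2 and 18.9 on P7, and 13.5, 17.3 and 23.8 on P10. It did not pass, at a log2 change of 0.34 (SE 0.22, adjusted p = 0.309), nor did Insig2 (log2 change -0.41, SE 0.28, adjusted p = 0.311). Scap did not pass, at a log2 change of -0.50 (SE 0.21, adjusted p = 0.105), and nor did Stard4, a carrier of cholesterol between membranes (log2 change 0.63, SE 0.28, adjusted p = 0.124). Stard4 gave 6.80, 8.56 and 10.5 CPM in the E17.5 libraries, then 8.80, 19.4 and 11.8 on P3, 13.2, 9.47 and 9.10 on P7, and 8.67, 8.41 and 9.66 on P10, and P3 replicate 2 was far above the rest. Without P3 replicate 1, the lowest P3 library in both genes, Srebf2 (adjusted p = 0.0146) and Stard4 (adjusted p = 0.0458) passed. That library was singled out by its low values, and fits without other libraries are not given here for these genes.

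Of the 9 fatty acid genes 4 rose and 2 fell. Acss2 (chromosome 2, 155517948 to 155585724, plus strand), which makes acetyl-CoA from acetate, gave 6.18, 9.44 and 14.1 CPM in the E17.5 libraries, then 3.27, 2.11 and 2.77 on P3, 2.14, 3.04 and 2.52 on P7, and 4.10, 5.63 and 6.05 on P10. Every E17.5 library was above every later one, though these 3 spread by more than any later stage. It fell 3.65-fold, a log2 change of -1.87 (SE 0.31, adjusted p = 0.00166), the largest fall of the 33. Acly (chromosome 11, 100476353 to 100528000, minus strand), which makes acetyl-CoA from citrate, gave 24.7, 30.0 and 28.5 CPM in the E17.5 libraries, then 35.6, 35.7 and 38.8 on P3, 31.2, 31.2 and 28.8 on P7, and 32.0, 32.5 and 35.8 on P10. It rose by a small amount, a log2 change of 0.40 (SE 0.09, adjusted p = 0.00998). The 2 sources of acetyl-CoA thus moved in opposite directions, with no overlap between E17.5 and P3 in either.

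The synthase and carboxylase genes did not pass. Fasn (chromosome 11, 120805846 to 120824547, minus strand) gave 28.9, 31.7 and 32.4 CPM in the E17.5 libraries, then 29.1, 31.8 and 22.02 on P3, 31.2, 27.5 and 24.8 on P7, and 26.9, 30.99 and 33.6 on P10. Its change was small, with a log2 change of -0.16 (SE 0.15, adjusted p = 0.451). Acaca, the carboxylase that makes malonyl-CoA, lay at 24.1 ± 3.16 CPM at E17.5, then 25.2 ± 4.42 on P3, 26.3 ± 2.01 on P7, and 26.8 ± 3.38 on P10 (SD, n = 3), with a log2 change of 0.06 (SE 0.15, adjusted p = 0.804). In both genes the libraries of all 4 stages overlapped. Acaca shares 33.4% of its 31-base words with other genes, mainly Gm5182, so its reads may be split. Elovl6, which lengthens long saturated chains, rose with a log2 change of 0.92 (SE 0.24, adjusted p = 0.0168) from 4.59 ± 0.662 to 8.73 ± 2.73 CPM (SD, n = 3). The desaturases of polyunsaturated chains rose together: Fads1 gave 15.8, 15.4 and 18.9 CPM in the E17.5 libraries, then 21.6, 23.3 and 22.1 on P3, 22.2, 22.4 and 21.3 on P7, and 19.5, 18.2 and 20.5 on P10. It rose with a log2 change of 0.42 (SE 0.10, adjusted p = 0.0107). Fads2 gave 13.7, 13.1 and 17.8 CPM in the E17.5 libraries, then 21.7, 28.4 and 22.8 on P3, 23.3, 23.2 and 20.8 on P7, and 21.4, 19.2 and 22.7 on P10. It rose with a log2 change of 0.70 (SE 0.14, adjusted p = 0.00537). These neighbours lie 81141 bases apart on chromosome 19 (Fads1 10182888 to 10196877, plus strand, and Fads2 10062765 to 10101746, minus strand) and share 0 words of 31 bases, so reads of that length tell them apart.

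The stearoyl-CoA desaturases, which make monounsaturated fatty acids, had estimates of opposite sign. Scd2 (chromosome 19, 44293674 to 44306864, plus strand) gave 71.5, 73.4 and 102 CPM in the E17.5 libraries, then 51.3, 62.9 and 32.3 on P3, 61.3, 53.8 and 53.9 on P7, and 46.3, 47.3 and 53.2 on P10. It fell to P3 with a log2 change of -0.75 (SE 0.22, adjusted p = 0.0276). Scd1 (chromosome 19, 44394455 to 44407879, minus strand) gave 1.97, 2.14 and 2.24 CPM in the E17.5 libraries, then 2.93, 4.84 and 2.77 on P3, 4.73, 4.11 and 3.42 on P7, and 4.69, 4.14 and 5.85 on P10. E17.5 and P3 did not overlap, but the difference did not pass, at a log2 change of 0.73 (SE 0.25, adjusted p = 0.056). The ratio of Scd2 to Scd1 levels was 36.3, 34.3 and 45.4 in the E17.5 libraries, 17.49, 13 and 11.7 on P3, 12.96, 13.1 and 15.8 on P7, and 9.87, 11.4 and 9.10 on P10. Scd2 thus remained the more abundant of the pair in every library, and the ratio at E17.5 exceeded that of every later library. The 2 genes lie 87590 bases apart and share 253 words of 31 bases, 5.18% of those of Scd1 and 4.63% of those of Scd2.

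**Figure D3:**
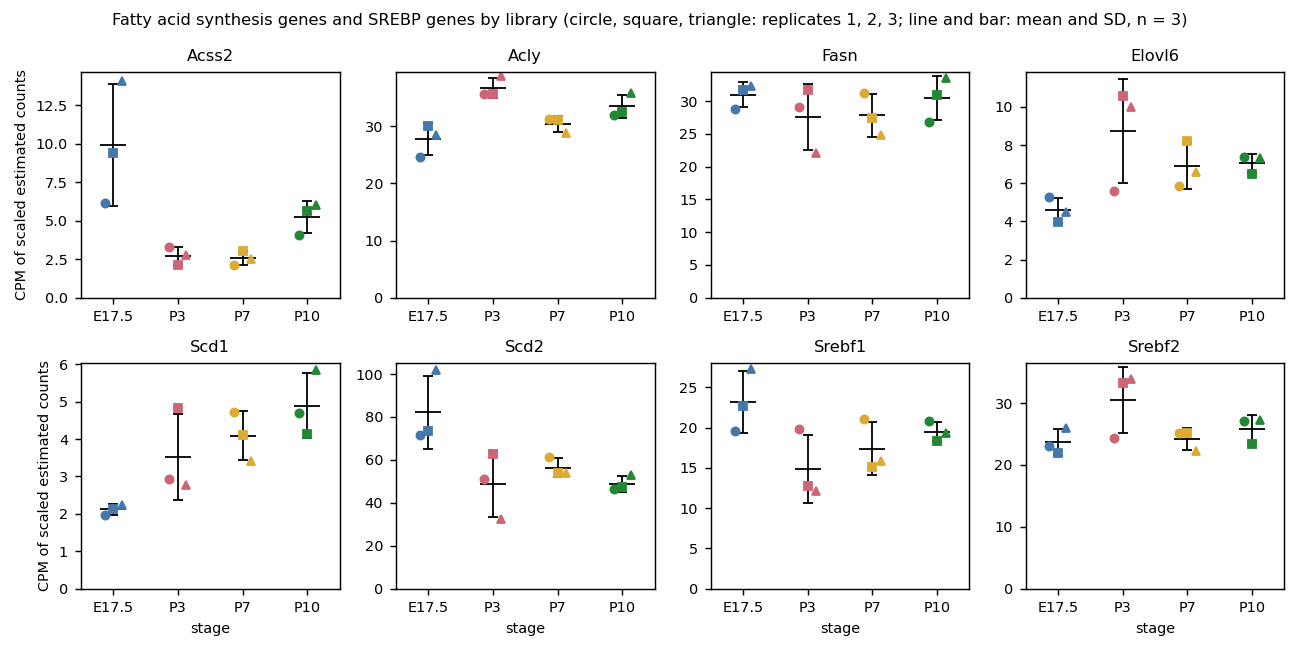
CPM (y axis, from 0) by stage (x axis) for 6 fatty acid genes and the SREBP genes Srebf1 and Srebf2; circles, squares and triangles are replicates 1, 2 and 3, lines and bars the mean and SD of 3 libraries. Acss2 and Scd2 are highest at E17.5, Scd1 is lowest there, and the Fasn libraries of all 4 stages overlap.

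Of the 17 calls between E17.5 and P3, 8 held under all 22 alternatives tried: Acat2, Hmgcs1, Idi1, Fdps, Sqle, Hsd17b7, Acss2 and Fads2. Without E17.5 replicate 2 the count fell from 17 to 11, leaving out each other library in turn gave up to 17, and with only the 6 libraries compared it was 9. Over all tested genes, leaving out E17.5 replicate 2 took the calls from 4225 to 2968. Acly and Fads1 lost their calls only with the 6 libraries compared (adjusted p = 0.0521 and 0.0635). For Lss, Cyp51, Elovl6, Nsdhl, Dhcr7 and Scd2 only left-out libraries are listed. The fit on the 6 libraries also ended calls among these genes. Lss lost its call without E17.5 replicate 1, 2 or 3 or P3 replicate 2 or 3 (adjusted p from 0.0546 to 0.102). Cyp51 (adjusted p from 0.0514 to 0.0529) and Elovl6 (adjusted p from 0.0556 to 0.0629) lost theirs without E17.5 replicate 2, P3 replicate 2 or P3 replicate 3. Nsdhl lost it without E17.5 replicate 1 or 2 or P3 replicate 1 or 2 (adjusted p from 0.0522 to 0.106), and Dhcr7 without E17.5 replicate 2 (adjusted p = 0.0533). Scd2 lost it without E17.5 replicate 3 or P3 replicate 1 or 3 (adjusted p from 0.0565 to 0.112). Srebf1 was the least stable, lost in 12 of 22 alternatives, 9 of them left-out libraries (E17.5 replicates 2 and 3, P3 replicates 2 and 3, P7 replicates 2 and 3, and all 3 at P10), with adjusted p from 0.0549 to 0.166.

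Between P3 and P7 none of the 33 genes was called by edgeR, where 0.00594% of all tested genes, a single gene, were. Estimates were negative for 26 of the 33, including all 7 mevalonate enzymes and 10 of 11 sterol ring enzymes, and for 20 without P3 replicate 2. The median log2 fold change was -0.26, against 0.01 over all tested genes, and without P3 replicate 2 it was -0.14. An unadjusted p under 0.05 was reached by 10 of the 33 and by 14.3% of all tested genes. The 3 P7 libraries lay wholly below the 3 P3 libraries in 7 of the 33, where 13.2% of all tested genes did so. These 7 were Cyp51, Sqle, Fdps, Mvd, Hsd17b7, Acat2 and Acly, and the log2 fold changes of Sqle and Cyp51 were -0.78 (SE 0.24, adjusted p = 0.206) and -0.82 (SE 0.25, adjusted p = 0.206). DESeq2 called 3 of the 33, all lower at P7, where it called 4.64% of all genes with an adjusted p: Hmgcs1 (adjusted p = 0.0398), Sqle (0.0363) and Cyp51 (0.0295), and limma-voom called 0, against 0.107% of all tested genes.

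From P7 to P10, 2 of the 33 genes were called, where 3.64% of all tested genes were. Hsd17b7 rose 1.75-fold, a log2 change of 0.81 (SE 0.16, adjusted p = 0.0273). Acat2 fell 1.80-fold, a log2 change of -0.85 (SE 0.17, adjusted p = 0.0306). In both, the P7 and P10 libraries did not overlap. Both calls depended on single libraries: that of Hsd17b7 ended without any 1 P7 library or P10 replicate 2 or 3 (adjusted p from 0.0752 to 0.104). That of Acat2 ended without any 1 library of P7 or P10, or P3 replicate 1 or 2, which are in the model only (adjusted p from 0.0509 to 0.114). Over all tested genes the count was 613, and 22 to 790 with each library left out in turn. Acss2 and Insig2 had P10 libraries wholly above those of P7 but did not pass, at a log2 change of 1.03 (SE 0.30, adjusted p = 0.0898) and a log2 change of 0.70 (SE 0.27, adjusted p = 0.184). The same held for Acly, at a log2 change of 0.14 (SE 0.09, adjusted p = 0.436). Pmvk, Mvk, Scd2 and Fads1 had P10 libraries wholly below those of P7 and did not pass either. Of these Pmvk had the smallest adjusted p, at a log2 change of -0.59 (SE 0.18, adjusted p = 0.104).

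By P10, 8 sterol enzymes had fallen from their P3 level. Compared with P3, 8 of the 33 genes were lower and 0 higher at P10, where 17.3% of all tested genes were called, 9.40% lower and 7.90% higher. The 8 were 5 of 7 mevalonate enzymes (Acat2, Hmgcs1, Pmvk, Idi1 and Fdps) and 3 of 11 sterol ring enzymes (Sqle, Lss and Cyp51), and 0 came from the other groups; whether the groups differ was not tested. The median log2 fold change was -0.31 over the 33 genes, against 0.03 over all tested genes, and it was -0.19 without P3 replicate 2 and -0.20 without P10 replicate 2. Acat2 fell 2.20-fold, a log2 change of -1.14 (SE 0.17, adjusted p = 0.00311). Lss fell 2.28-fold, a log2 change of -1.19 (SE 0.34, adjusted p = 0.0371). Cyp51 fell 2.15-fold, a log2 change of -1.10 (SE 0.26, adjusted p = 0.0159). Pmvk gave 17.1, 14.2 and 15.1 CPM in the E17.5 libraries, then 19.8, 20.1 and 15.1 on P3, 20.3, 13.9 and 14.1 on P7, and 10.1, 9.45 and 12.5 on P10. Its P10 libraries were the lowest 3 of the 12, and it fell with a log2 change of -0.78 (SE 0.18, adjusted p = 0.0168). Hmgcs1, Sqle, Idi1 and Fdps fell 1.84-fold, 1.81-fold, 1.74-fold and 1.60-fold, with adjusted p between 0.0269 and 0.0432. The 2 comparisons with P3 share its 3 libraries, so a high P3 library moves both.

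The count between P3 and P10 depended on single libraries, and so did the count over all tested genes. The latter was 2912, and 1307 to 3053 with each library left out in turn. Of the 8 calls, that of Acat2 held under all 22 alternatives. It was the 1 call left without P3 replicate 2, where the other 7 had adjusted p from 0.0529 to 0.128 (Cyp51 to Lss), and without P10 replicate 2, with adjusted p from 0.0655 to 0.153 (Cyp51 to Idi1). Without P3 replicate 3, 2 calls were left (Acat2 and Pmvk), and the other 6 had adjusted p from 0.0565 to 0.119 (Cyp51 to Idi1). Without P10 replicate 3, 4 calls were left, and Hmgcs1, Fdps, Sqle and Lss had adjusted p from 0.0506 to 0.116. Without P7 replicate 2, which is in the model but not in the comparison, 5 were left, and Idi1, Fdps and Sqle had adjusted p from 0.0522 to 0.0594. Without P10 replicate 1 Hmgcs1 and Idi1 lost theirs (adjusted p = 0.0556 and 0.0973), and without P3 replicate 1 Pmvk did (adjusted p = 0.0565). With the filter on low counts lifted the count was 5.

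Between the first and last stage, E17.5 and P10, 6 of the 33 genes were called, 3 higher and 3 lower, where 18.3% of all tested genes were called, 8.79% higher and 9.50% lower. Hsd17b7 rose 3.503-fold, a log2 change of 1.81 (SE 0.17, adjusted p = 4.81e-05). Scd1 rose 2.31-fold, a log2 change of 1.21 (SE 0.25, adjusted p = 0.00754). Fads2 rose 1.41-fold, a log2 change of 0.50 (SE 0.14, adjusted p = 0.0349). Scap gave 9.04, 12.6 and 9.91 CPM in the E17.5 libraries, then 6.96, 8.03 and 7.16 on P3, 7.72, 5.69 and 8.47 on P7, and 6.12, 4.14 and 6.46 on P10. It fell with a log2 change of -0.91 (SE 0.21, adjusted p = 0.013). Mvd gave 4.69, 4.38 and 4.75 CPM in the E17.5 libraries, then 3.34, 3.13 and 3.58 on P3, 2.59, 2.08 and 2.68 on P7, and 3.27, 2.20 and 2.49 on P10. It fell with a log2 change of -0.79 (SE 0.19, adjusted p = 0.0165). In both, every P10 library lay below every E17.5 library. Scd2 fell 1.68-fold, a log2 change of -0.75 (SE 0.22, adjusted p = 0.0352), close to its change from E17.5 to P3. Acss2 stayed under its E17.5 level without passing, at a log2 change of -0.91 (SE 0.30, adjusted p = 0.0561), and Dhcr7 stayed above it, at a log2 change of 0.74 (SE 0.23, adjusted p = 0.0503). The median log2 fold change was 0.13 over the 33 genes and 0.00 over all tested genes. The median of the 33 was 0.05 without P10 replicate 3, 0.07 without E17.5 replicate 1 or replicate 2, 0.21 without E17.5 replicate 3 and 0.20 with upper-quartile factors.

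The calls of Hsd17b7 and Scd1 between E17.5 and P10 held under all 22 alternatives. That of Scap did not hold when E17.5 replicate 2 was left out (adjusted p = 0.0536), and that of Mvd without P10 replicate 2 (0.0633) or P10 replicate 3 (0.0671). Scd2 passed in 11 of 22 alternatives and Fads2 in 12. Scd2 lost its call without E17.5 replicate 2 or 3, P3 replicate 1, P7 replicate 2 or 3, or any P10 library (adjusted p from 0.0523 to 0.114). Fads2 lost it without E17.5 replicate 1 or 2, any P7 library, or P10 replicate 1 or 3 (adjusted p from 0.0513 to 0.129). The count of 6 dropped to 3 when E17.5 replicate 2, or P10 replicate 3, was left out. It was also 3 with only the 6 libraries compared. Over all tested genes the count was 3077, and 2016 to 3113 with each library left out in turn.

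Summed over each group, the sterol route peaked at P3 and the fatty acid sum did not. The 7 mevalonate enzymes summed to 77.5, 67.8 and 88.6 CPM in the E17.5 libraries, then 114, 161 and 133 on P3, 112, 88.2 and 93.0 on P7, and 77.6, 68.0 and 90.5 on P10. The 11 sterol ring enzymes summed to 65.6, 72.8 and 96.5 CPM in the E17.5 libraries, then 103, 155 and 126 on P3, 95.7, 87.2 and 87.7 on P7, and 89.0, 90.6 and 111 on P10. In both sums the lowest P3 library lay above every E17.5 library, and P3 replicate 2 was the highest of all 12. The 9 fatty acid genes summed to 213 ± 30.6 CPM at E17.5, then 199.9 ± 27.7 on P3, 199 ± 10.02 on P7, and 197 ± 9.28 on P10 (SD, n = 3). The sum of the 6 control genes was 100.3 ± 11.4 CPM at E17.5, then 102 ± 15.5 on P3, 89.9 ± 8.26 on P7, and 95.2 ± 6.85 on P10 (SD, n = 3). Scd2 was the largest single member of the fatty acid sum, and its own fall across birth stands beside rises of other genes in that sum.

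Libraries of 1 stage also differed in these genes together. E17.5 replicate 3 was the highest of its stage in 26 of the 33 genes, P3 replicate 2 in 24, P7 replicate 1 in 20 and P10 replicate 3 in 23. The median deviation of the 33 genes from the stage mean on the log2 scale was 0.17, 0.23, 0.09 and 0.11 in these 4 libraries, while the median over all tested genes was near 0 in each. P3 replicate 1 was the lowest of its stage in 20 of the 33, and E17.5 replicate 2 and P10 replicate 2 were the lowest in 18 and 19. The 33 genes share pathways and regulators, so these counts are not independent observations. The library most often lowest had the highest 7SL and 7SK share of its stage in all 4 stages. These were E17.5 replicate 2 (46.3%), P3 replicate 1 (43.7%), P7 replicate 3 (33.01%) and P10 replicate 2 (35.11%). The library most often highest had the lowest share at E17.5 (35.83%), P3 (34.85%) and P10 (20.01%), but not on P7 (28.78%). Some of these margins were narrow. Whether this share bears on the deviations was not tested.

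Markers of other cells and states also moved between the stages. The 5 proliferation genes (Mki67, Top2a, Ccnb1, Mcm5 and Pcna) summed to 104 ± 13.9 CPM at E17.5, then 317 ± 16.4 on P3, 292 ± 7.37 on P7, and 121.5 ± 25.4 on P10 (SD, n = 3). All 5 rose from E17.5 to P3, where 13.1% of all tested genes rose. All 5 fell from P7 to P10, where 3.64% of all tested genes were called. Between P3 and P7, 0 of these 5 genes were called, and 0 of the 7 mevalonate enzymes. Only 1 of all 16827 tested genes was called there, so these counts of 0 do not set either list apart. The mevalonate sum lay at 136 ± 23.8 CPM on P3 and 97.7 ± 12.6 on P7 (SD, n = 3). Type 2 epithelial markers, 7 genes led by Sftpc, summed to 97.0, 111 and 140.2 CPM in the E17.5 libraries, then 137, 140.1 and 214 on P3, 109, 136 and 95.2 on P7, and 45.2, 179.9 and 132 on P10, and 0 of the 7 were called in any comparison of stages. Of all tested genes 25.1% were called from E17.5 to P3 and 17.3% from P3 to P10. The highest type 2 sum was in P3 replicate 3, and the stage mean was highest on P3. The median log2 fold change of the 7 type 2 markers was 0.28 from E17.5 to P3. It was -0.40 from P3 to P7 and -0.66 from P3 to P10, with negative estimates for all 7 in both. Type 1 epithelial markers (Ager, Hopx, Aqp5 and Rtkn2) summed to 30.7, 25.1 and 29.3 CPM in the E17.5 libraries, then 38.7, 35.3 and 44.0 on P3, 25.7, 29.6 and 26.2 on P7, and 12.6, 25.0 and 20.1 on P10. Every P3 library lay above every other, as in the mevalonate sum. Across birth 2 of the 4 genes rose (median log2 fold change 0.93), where 13.1% of all tested genes did. From P3 to P10, 2 of 4 fell (median -1.17), where 9.40% of all tested genes did. Alveolar fibroblast markers were lower at P7 and P10, where their sum was at most 100.5 CPM, than at P3, where it was at least 296. Airway epithelial markers, mainly Tppp3 and Scgb1a1, summed to 15.1 ± 3.20 CPM at E17.5, then 109.9 ± 23.0 on P3, 143 ± 30.6 on P7, and 167 ± 85.0 on P10 (SD, n = 3). Pericyte markers summed to 154 ± 38.5 CPM at E17.5, then 69.0 ± 2.56 on P3, 105 ± 7.39 on P7, and 179.9 ± 21.4 on P10 (SD, n = 3). Endothelial markers summed to between 8.43 and 50.9 CPM, erythroid markers to between 3.94 and 78.1, and immune markers to between 9.83 and 22.8, with Marco and Cd3e at or near 0. Mesothelial markers summed to at most 1.36 CPM, with Upk3b and Wt1 at or near 0. The part of these cells and states in the changes of the 33 genes was not tested. Without E17.5 replicate 1, the library highest in alveolar fibroblast markers, 15 of the 33 genes were called between E17.5 and P3. With every library kept the count was 17. Over all tested genes the calls fell as well, from 4225 with every library to 3664 without E17.5 replicate 1.

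**Figure D4:**
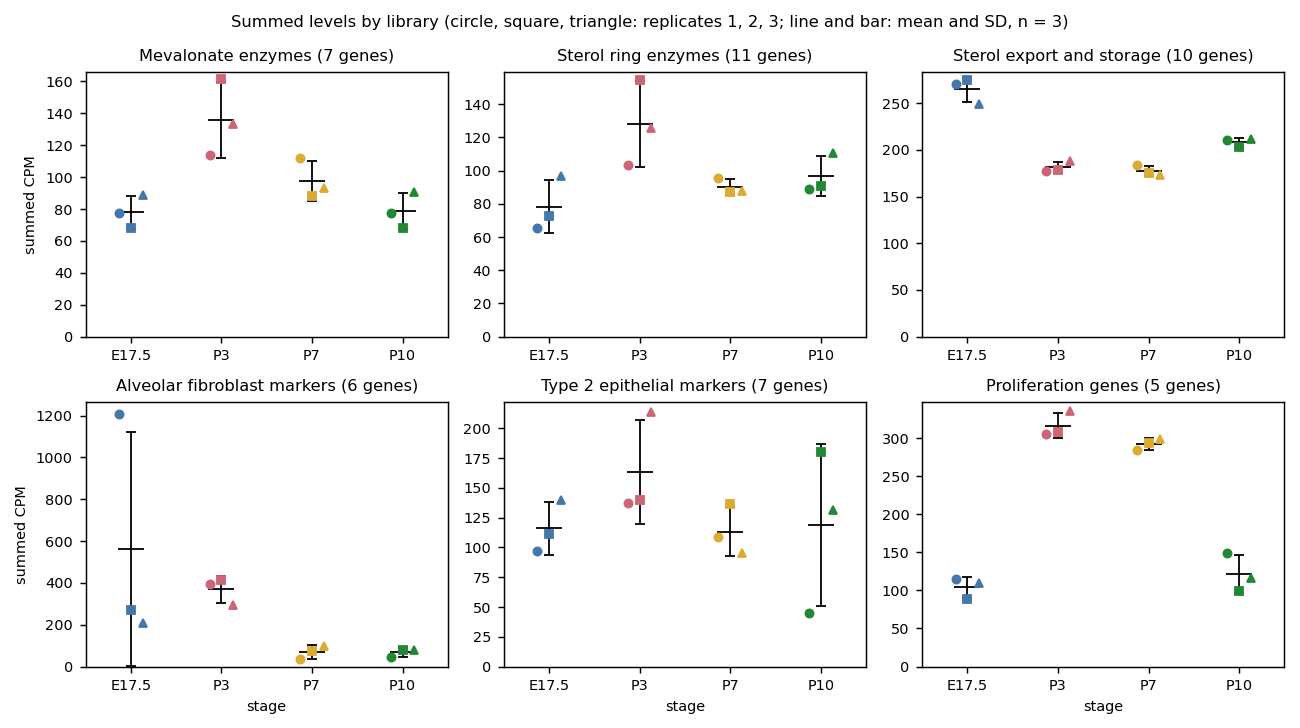
Summed CPM (y axis, from 0) by stage (x axis) for the mevalonate enzymes, the sterol ring enzymes, the sterol export and storage genes and 3 marker lists; circles, squares and triangles are replicates 1, 2 and 3, lines and bars the mean and SD of 3 libraries. Both sterol synthesis sums are highest at P3, the export and storage sum is highest at E17.5, and E17.5 replicate 1 stands apart in alveolar fibroblast markers.

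Genes of sterol export, storage and lysosomal release, outside the 33, fell more often than they rose across birth. Of 10 such genes 1 (Soat1, named after its value was seen) rose and 5 fell from E17.5 to P3, with a median log2 fold change of -0.56, against -0.05 over all tested genes, of which 13.1% rose and 12% fell. From P3 to P10, 3 rose and 0 fell, with medians of 0.31 and 0.03, where 7.90% of all tested genes rose and 9.40% fell. Abca1, the transporter that loads cholesterol onto lipoprotein, gave 53.7, 54.9 and 60.3 CPM in the E17.5 libraries, then 15.1, 15.8 and 9.46 on P3, 19.3, 14.3 and 14.4 on P7, and 20.7, 27.0 and 27.9 on P10. It fell to P3 with a log2 change of -2.06 (SE 0.20, adjusted p = 9.73e-05) and rose from P3 to P10 with a log2 change of 0.90 (SE 0.20, adjusted p = 0.013), reaching less than its E17.5 level. Nr1h3, the oxysterol receptor LXR alpha, lay at 16.2 ± 2.89 CPM at E17.5, then 6.02 ± 1.05 on P3, 6.01 ± 0.667 on P7, and 7.44 ± 0.796 on P10 (SD, n = 3), with a log2 change of -1.43 (SE 0.18, adjusted p = 0.000375) across birth. Mylip, a ubiquitin ligase induced by that receptor, lay at 18.2 ± 3.11 CPM at E17.5, then 7.41 ± 1.78 on P3, 7.17 ± 1.46 on P7, and 9.92 ± 1.23 on P10 (SD, n = 3), with a log2 change of -1.30 (SE 0.21, adjusted p = 0.00166). The 10 genes summed to 270.2, 274 and 249.5 CPM in the E17.5 libraries, then 177, 178 and 188 on P3, 184, 175 and 174 on P7, and 210.0, 203 and 211 on P10, and every E17.5 library exceeded every later one. Abca1 and Mylip are textbook targets of LXR, whose activity was not measured here.

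Of 8 genes outside the 33 in the non-sterol branches from farnesyl pyrophosphate, 0 rose and 2 fell from E17.5 to P3, with a median log2 fold change of 0.00, where 13.1% of all tested genes rose and 12% fell. These were Nus1, of dolichol synthesis (log2 change -0.66, SE 0.19, adjusted p = 0.0272), and Ggps1, which makes the next longer isoprenoid (log2 change -0.41, SE 0.11, adjusted p = 0.025). Without E17.5 replicate 1 neither passed (adjusted p = 0.0975 and 0.0559). Pdss1, of the ubiquinone side chain, rose between E17.5 and P10 (log2 change 0.70, SE 0.20, adjusted p = 0.0351). The 8 genes summed to 81.2 ± 6.38 CPM at E17.5, then 76.3 ± 4.20 on P3, 78.3 ± 2.10 on P7, and 75.0 ± 2.02 on P10 (SD, n = 3).

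Of 14 genes of fatty acid supply and chain elongation, 3 rose and 1 fell from E17.5 to P3, with a median log2 fold change of 0.18. The 4 calls are a share close to the 25.1% of all tested genes. Between E17.5 and P10, 4 rose and 2 fell, with a median of 0.20, where 8.79% of all tested genes rose and 9.50% fell. Me1, the malic enzyme that supplies NADPH for synthesis, gave 4.49, 3.89 and 5.48 CPM in the E17.5 libraries, then 28.6, 34.4 and 29.7 on P3, 32.4, 30.2 and 30.8 on P7, and 29.6, 21.0 and 26.5 on P10. Every later library exceeded every E17.5 library, and the log2 fold change to P3 was 2.73 (SE 0.16, adjusted p = 8.11e-06). Acsl5, which activates fatty acids with CoA, lay at 4.07 ± 0.808 CPM at E17.5, then 9.24 ± 0.686 on P3, 9.77 ± 0.685 on P7, and 13.4 ± 0.296 on P10 (SD, n = 3), with a log2 change of 1.19 (SE 0.15, adjusted p = 0.00042) to P3. From P3 to P10 it rose again, a log2 change of 0.53 (SE 0.15, adjusted p = 0.0306). Slc25a1, the mitochondrial citrate carrier upstream of Acly, fell from 35.2 ± 2.42 to 23.2 ± 0.703 CPM (SD, n = 3), a log2 change of -0.60 (SE 0.08, adjusted p = 0.000561). Slc25a1 and Acly, consecutive steps in the supply of cytosolic acetyl-CoA, therefore changed in opposite directions across birth.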

How the data were processed

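RNA was measured in 12 libraries of sorted mouse lung cells, 3 at each of 4 stages, from whole lung dissociated to single cells, with a low-input stranded total RNA kit, per the labels' protocols; the labels also call the molecule polyA RNA. The deposited table holds estimated gene counts (expected counts) that the authors made on GRCm38, per the submitters' processing notes; which aligner, quantifier and annotation they used is not given in the sources used here. Among its values above 0, the 5th percentile fell from 36 for genes of 50 to 120 nucleotides to 1 for genes of 1001 to 4000, which is how counts scaled by transcript length would look. Values were rounded and used as counts in 1 model over all libraries with edgeR 4.0.16 in R 4.3.3 (TMM factors, filterByExpr by stage, robust quasi-likelihood, common dispersion 0.145, Benjamini-Hochberg adjustment over 16827 genes, threshold 0.05). TMM factors lay between 0.589 and 1.48. DESeq2 1.42.0 and limma-voom (limma 3.58.1) were among 22 alternatives, with other scalings and filters, a replicate block, no robust estimation, only the 6 libraries compared, and each library left out. The procedure was tested on simulated data. The 33 genes and the other lists were chosen with earlier results of these data known. Any of the 33 genes could be named; of each other list, up to 3 genes with the smallest adjusted p over the 4 stages were, except 1 that is not reported here. Gene positions come from GENCODE M21 on GRCm38 and promoters from RefSeq on GRCm38.p6; promoters of Sqle, Stard4, Fdft1, Fdps, Scd1, Fads1 and Scd2 were not used here.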

Additional observations from a re-analysis of the deposited data

How the results depend on the processing

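Over the 33 genes and the comparisons of stages, 4323 values were recomputed under 22 alternatives. Of these, 4084 stayed on the same side of the threshold, 200 lost a call and 39 gained one. A change of direction was counted only where a call was made with or without the alternative, and there were 0 such cases. Estimates without a call could change sign and still count among the 4084. Of 51 calls, 18 held in all alternatives. The count of the 33 genes called moved by over 1.5 times in these cases: with DESeq2 it was 3 between P3 and P7 (0 with edgeR), 4 between P7 and P10 (2) and 10 between E17.5 and P10 (6); with only the 6 libraries compared it was 9 between E17.5 and P3 (17) and 3 between E17.5 and P10 (6); without a filter on low counts it was 5 between P3 and P10 (8). Leaving out each library in turn gave 11 to 17 calls between E17.5 and P3, 0 to 0 between P3 and P7, 0 to 2 between P7 and P10, 3 to 7 between E17.5 and P10, 1 to 9 between P3 and P10, and 10 to 17 over the 4 stages. Over all tested genes the ranges were 2968 to 4305, 0 to 73, 22 to 790 and 2016 to 3113, in that order. For P3 and P10 the range was 1307 to 3053, and over the 4 stages 4096 to 5413. The cause of these moves was not tested, beyond the smaller number of libraries in fits on 6 libraries or with 1 left out.

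For same-numbered libraries, 18 pairs had correlations of their deviations from -0.20 to 0.14, and 3 exceeded 0.1. Pairs with different numbers were not compared, so this cannot show whether the numbers pair the samples. The labels do not say what the numbers mark. With the replicate block, 3 of the 33 genes were called between P3 and P10 in place of 8. Over all genes the block gave 0 calls between P3 and P7 (1 without it) and 310 between P7 and P10 (613). Calls over all genes between P3 and P7 numbered 4 with upper-quartile factors, 3 without a filter, 19 with a stricter filter, 730 with DESeq2, 18 with limma-voom and 9 with only the 6 libraries; between P7 and P10 they numbered 307 without a filter and 1841 with DESeq2; with only the 6 libraries they numbered 2767 between E17.5 and P3 (4225) and 1687 between E17.5 and P10 (3077). Under other scalings 131 of 396 stage means in CPM moved by more than 1 SD, and no scaling shifted the median log2 fold change of all genes by over 0.1. The number of libraries per stage, 3, limits what these tests can detect, and a missed threshold does not show that levels were equal.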

Other observations

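Of 9 genes of triglyceride storage and lipid uptake 8 passed the filter on low counts (Pparg did not); 1 rose and 3 fell from E17.5 to P3, where 13.1% of all tested genes rose and 12% fell. Between E17.5 and P10, 1 rose and 4 fell, with a median log2 fold change of -0.86, against 0.00 over all tested genes, of which 8.79% rose and 9.50% fell. Lpl, the lipase that frees fatty acids from lipoproteins for uptake, gave 7.88, 6.13 and 9.60 CPM in the E17.5 libraries, then 36.6, 42.8 and 30.4 on P3, 47.4, 54.2 and 53.7 on P7, and 63.2, 38.5 and 43.3 on P10. Every later library exceeded every E17.5 library, with a log2 change of 2.21 (SE 0.22, adjusted p = 0.000103) to P3. Gpam, the first acyltransferase of triglyceride synthesis, lay at 37.5 ± 10.3 CPM at E17.5, then 11.5 ± 2.61 on P3, 9.63 ± 0.925 on P7, and 9.16 ± 0.507 on P10 (SD, n = 3), with a log2 change of -1.70 (SE 0.22, adjusted p = 0.000444) to P3. Dgat2, the last, gave 13.3, 7.30 and 5.79 CPM in the E17.5 libraries, then 1.70, 1.77 and 1.96 on P3, 1.30, 1.80 and 1.26 on P7, and 0.653, 1.36 and 1.22 on P10. It fell with a log2 change of -2.27 (SE 0.35, adjusted p = 0.00119) to P3. In both acyltransferases every E17.5 library lay above every later one. The whole list summed to 249, 107 and 109.9 CPM in the E17.5 libraries, then 99.4, 109 and 91.5 on P3, 96.2, 110.4 and 106 on P7, and 109, 102 and 100.4 on P10. E17.5 replicate 1, which also stood apart in alveolar fibroblast markers, was far above the rest. Without it the calls of Lpl, Gpam and Dgat2 to P3 held, at log2 changes of 2.21, -1.57 and -1.85 (adjusted p = 0.000632, 0.0017 and 0.00318).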
